A study of Ambystoma mexicanum with 7 samples.

Results

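The miR-23/24/27 group was followed in axolotl hindlimbs as the microRNAs named miR-23, miR-23a, miR-23b, miR-24, miR-24a, miR-24b, miR-27a, miR-27b, miR-27c and miR-27d. A probe belonged to the group where a vertebrate entry of its name was exactly 1 of these 10 names. Of the 10, 9 had a probe on each of 2 microarray platforms, and the plain name miR-23 matched no probe. They took 11 of 2021 named probes on the Exiqon arrays and 37 of 1974 reporters on the LC Sciences arrays, out of 980 and 1393 vertebrate microRNA names. Each platform read mid-bud blastemas taken 17 days post-amputation (17 dpa) from 3 white axolotls (animals 368, 369 and 378) and, as their counterpart, the stump tissue removed from the same animals at amputation (0 dpa), which held skin, bone, muscle and nerve fibres. No genotype or treatment other than amputation set the groups apart, and aliquots of the same RNA went to both companies. The Exiqon arrays set each sample (Hy3) against 1 common pool of all samples (Hy5). The LC Sciences arrays put blastema and stump of 1 animal on each array, and the blastema carried Cy3 on the array of animal 368 but Cy5 on the other 2 arrays. Both platforms carry probes designed on other species, so a signal is what axolotl RNA gave on that probe.

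MicroRNAs are short RNAs that pair with target messengers mainly through the seed, the stretch from base 2 to base 8. In vertebrates miR-23, miR-27 and miR-24 are cut from shared precursor transcripts. In humans, 1 cluster holds miR-23a, miR-27a and miR-24 and another, within an intron of the aminopeptidase O gene, holds miR-23b, miR-27b and miR-24, so that mature miR-24 of both clusters is the same molecule. In mammals miR-23 and miR-27 are known from blood vessel sprouting, miR-27 from repression of Pax3 in muscle progenitors, miR-24 from muscle differentiation and miR-23a from resistance to muscle wasting. The question put to the arrays was whether the mates of a cluster differed between blastema and stump in the same direction.

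The sequences below are the targets of LC Sciences reporters, as deposited, with the seed in capitals, and they show how little separates the members. The 37 reporters read 17 distinct targets with 3 seeds, 1 per family, and 11 of the 17 were read by more than 1 reporter, so reporters of 1 target are repeats on an array and not further samples. 
miR-23a (human): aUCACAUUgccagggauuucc
miR-23a (opossum): aUCACAUUgccagggauuuc
miR-23b (human): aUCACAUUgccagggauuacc
miR-24 (human, zebrafish, chicken) and frog miR-24a: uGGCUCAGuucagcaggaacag
miR-24b (frog): uGGCUCAGuucagcaggacag
miR-27a (human): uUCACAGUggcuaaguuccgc
miR-27b (human): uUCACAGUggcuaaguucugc
miR-27c (frog): uUCACAGUggcuaaguuccac
miR-27c (zebrafish): uUCACAGUgguuaaguucugc
miR-27d (zebrafish): uUCACAGUggcuaaguucuuca
Over the 21 bases that the human forms share, miR-23b differed from miR-23a by 1 substitution (U19A, counted from the 5′ end of miR-23a). Counted on miR-27b, miR-27a differed by U19C, frog miR-27c by U19C and G20A, miR-27d by G20U over the same length, and zebrafish miR-27c by C11U. Members of 1 family thus share a seed and mostly differ near the 3′ end, and signal of 1 form on the reporter of another cannot be told apart here.

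The median Hy3 signal of a named probe was 118 to 127 on the Exiqon arrays, the brightest negative control read 116 to 128, and all 11 member probes were above it on all 6 arrays. The 2 arrays of animal 368 stood apart in flagged spots, 1449 for its blastema and 1076 for its stump, where the other 4 had 169 to 192, and 3 spots of members were among them. On the LC Sciences arrays 489 to 576 reporters per sample reached a signal of 32, below which signals were set to 32, and 500 reporters were tested, the 37 of the group among them. The labelled tissues carried their markers unevenly. On the LC Sciences arrays the summed signal of 12 fixed muscle names was 5125 to 51312 in blastemas and 135669 to 150070 in stumps, and 6 of the 9 tested fell. That of the endothelial marker miR-126 was 1729 to 3350 in blastemas and 6079 to 6738 in stumps, and the 1 name tested fell. The epidermal list stood at 52582 to 69799 in blastemas and 35214 to 40762 in stumps, with 3 of 6 names higher. Connective tissue names summed to 9467 to 14479 in blastemas and 9758 to 11746 in stumps, with 3 of 6 lower, and of 3 blood names 2 were higher and 1 lower. Of 2 smooth muscle names 1 was higher, and no nerve name was tested. Lower in blastemas on the Exiqon arrays were 10 of 11 muscle names, 2 of 2 endothelial names, 7 of 7 connective tissue names, 3 of 6 epidermal names and 1 of 3 nerve names. Of 5 blood names there 1 was higher and 0 lower, and 0 of 2 smooth muscle names were called. Over all names tested, 54 of 168 were higher and 41 lower on the LC Sciences arrays, and 98 of 979 higher and 159 lower on the Exiqon arrays. In such bulk samples fewer cells of a type and less RNA per cell cannot be told apart, and the part of tissue makeup in the values below was not tested.

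miR-23 stood higher in the blastemas on the LC Sciences arrays as normalized by the company, and lower when set relative to the spike-in controls of the normalized signals. For animal 368, those controls read 2.48 (log2, blastema over stump) as normalized and -0.19 in the spots before normalization. The human miR-23a reporter read 5867, 6394 and 6436 in the blastemas of animals 368, 369 and 378, against 2408, 2173 and 2203 in their stumps. Every blastema was above every stump, and the fold was 2.76 (log2 difference 1.46, SE 0.19, limma adjusted p = 0.0012). The human miR-23b reporter, with a target 1 base away, read 4306, 4332 and 5028 in blastemas, against 2784, 2267 and 2465 in stumps. Here too the groups were apart, by 1.82-fold (log2 difference 0.86, SE 0.20, limma adjusted p = 0.013). All 7 miR-23a and all 8 miR-23b reporters passed the test in this direction, where 25.8% of the 500 reporters did (called higher at a limma adjusted p under 0.05).

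**Figure D1:**
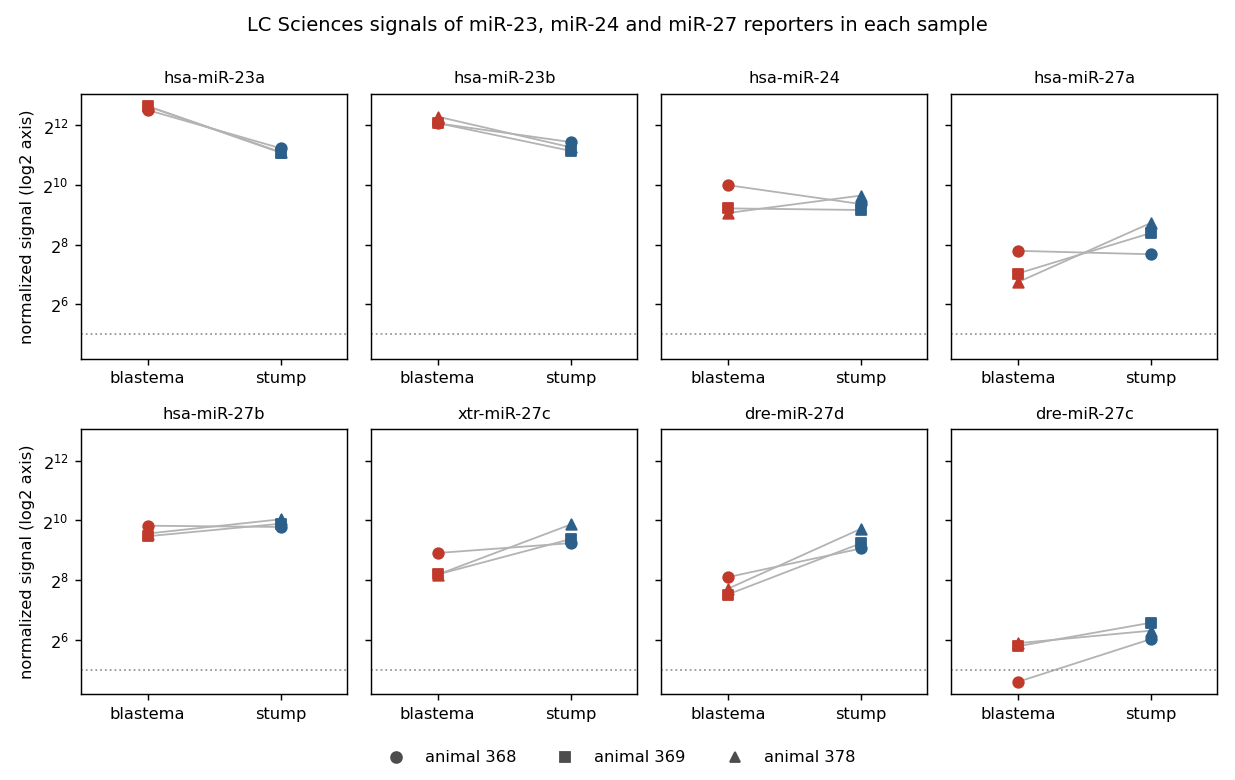
Normalized LC Sciences signal (log2 axis) of 8 reporters in each sample, with blastemas in red on the left, stumps in blue on the right and a line joining the samples of 1 animal. The dotted line is the signal of 32 to which lower values were set. On this scale (not relative to the spike-in controls) miR-23a and miR-23b are higher in all 3 blastemas, miR-24 crosses between animals, and miR-27d is lower in all 3 blastemas.

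The rise differed in size between the targets of miR-23. The 7 miR-23a reporters differed by 1.03 to 1.55 (log2) and the 8 miR-23b reporters by 0.65 to 1.01, so the ranges did not meet. Within miR-23a, the 2 reporters of the opossum target of 20 bases stood at 1.03 and 1.11, and the 5 reporters of the targets of 21 and 22 bases at 1.44 to 1.55. Within miR-23b, the 5 reporters of the target of 21 bases stood at 0.82 to 1.01 and the 3 of longer targets at 0.65 to 0.73. At 21 and 22 bases, the lengths common to both members, the medians were level in miR-23a (1.46 and 1.47). In miR-23b they were 0.92 and 0.66, with 0.73 at 23 bases. Size thus had no common trend with target length. The difference between miR-23a and miR-23b was held by each animal: 0.59, 0.56 and 0.47 (log2) for animals 368, 369 and 378 as means of all reporters of a name.

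The Exiqon arrays, with loess within arrays, placed miR-23 close to no difference. The probe listing human miR-23a (19 species entries) had log2 ratios to the pool of 0.06, 0.15 and 0.04 in blastemas, against -0.11, -0.11 and -0.02 in stumps. The groups did not overlap, but the difference of 0.16 did not pass the test (SE 0.10, limma adjusted p = 0.36). A second miR-23a probe, listing mouse first (17 entries), read 0.22, 0.25 and 0.16 in blastemas, against -0.22, -0.09 and -0.08 in stumps. It was the 1 member probe called higher, by 1.27-fold (log2 difference 0.34, SE 0.11, limma adjusted p = 0.047), and it lost the call with the animal as a block. The miR-23b probe gave -0.01, -0.04 and -0.06 in blastemas, against -0.11, -0.07 and 0.13 in stumps, which overlap (difference -0.02, 95% confidence interval -0.27 to 0.23, limma adjusted p = 0.93). Of all 2011 Exiqon probes tested, 9.2% were called higher and 10.9% lower.

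Before the ratio to the pool was taken, the miR-23 probes were dimmer in the blastemas. The Hy3 signal of the human-first miR-23a probe was 1243, 1753 and 1832 in blastemas, against 3021, 2195 and 3141 in stumps. That of miR-23b was 906, 1237 and 1321 in blastemas, against 2281, 1648 and 2350 in stumps. The direction of miR-23a on this platform thus depended on the scaling. As the mean of its probes it differed by 0.25 as reported, which was not called (limma adjusted p = 0.088). It was called lower with median centring (-0.72, limma adjusted p = 0.0078) and with loess fitted to the spike-in controls (-0.96, limma adjusted p = 0.016). With quantile-normalized Hy3 signals it differed by -0.05 and was not called (limma adjusted p = 0.80). Other settings called it higher: 0.34 with a background offset of 50 (limma adjusted p = 0.0020) and 0.44 without background correction (limma adjusted p = 4.3e-04). With the deposited ratios it was called higher too (0.26, limma adjusted p = 0.035).

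miR-24, the mate common to both clusters, had 1 of its 3 probes called lower in the blastemas on the Exiqon arrays. The probe listing mouse miR-24 first read -0.45, -0.47 and -0.51 (log2 ratio) in blastemas, against -0.05, -0.02 and 0.19 in stumps. All 3 blastemas lay below all stumps, and the probe fell by 0.52 on the log2 scale (SE 0.11, limma adjusted p = 0.0086). The human-first probe gave -0.24, -0.28 and -0.34 in blastemas, against -0.02, -0.08 and 0.23 in stumps, with no overlap and a difference of -0.33 that missed the threshold (SE 0.12, limma adjusted p = 0.084). The frog miR-24b probe gave -0.30, -0.33 and -0.39 in blastemas, against -0.07, -0.07 and 0.19 in stumps (difference -0.36, SE 0.12, limma adjusted p = 0.057). The 3 probes were lower in the blastema of every animal, by 0.20 to 0.70.

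**Figure D2:**
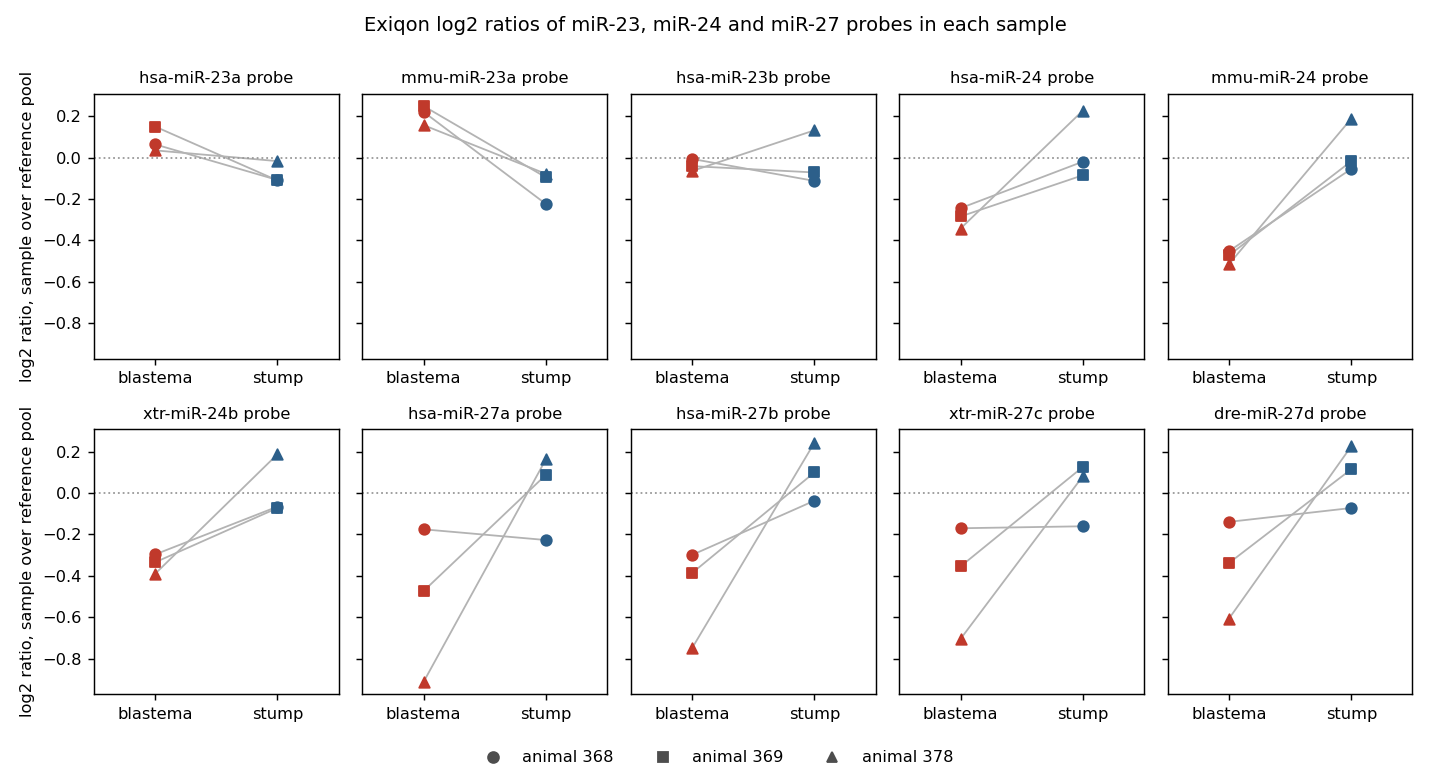
Exiqon log2 ratio of sample over the common pool for 10 member probes, each named by the first entry of its list, with blastemas in red on the left, stumps in blue on the right and a line per animal. The miR-24 blastemas lie close together below the stumps, and the miR-27 blastemas spread out by animal, with 378 lowest.

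On the LC Sciences arrays miR-24 had no common direction over animals. The human reporter read 1023, 596 and 535 in the blastemas of animals 368, 369 and 378, against 659, 574 and 803 in their stumps. The blastema was above its stump in animal 368 (log2 difference 0.63), near it in animal 369 (0.05) and below it in animal 378 (-0.59), so the mean of 0.03 carried a wide interval (95% confidence interval -0.69 to 0.75, limma adjusted p = 0.93). The 3 other reporters of the same target (zebrafish, chicken and frog miR-24a) differed by -0.10 to -0.03 and likewise stood above the stump in animal 368 and below it in animal 378. Frog miR-24b, with a target of 21 bases, read 625, 453 and 389 in blastemas, against 480, 569 and 692 in stumps (difference -0.26, SE 0.27, limma adjusted p = 0.44). The opossum reporter, whose target of 16 bases is cut short, read 66, 74 and 40 in blastemas, against 130, 69 and 110 in stumps (difference -0.78, SE 0.34, limma adjusted p = 0.10). None of the 6 miR-24 reporters passed the test. With each animal's differences adjusted for GC content, however, the mean of miR-24 reporters, the opossum one included, stood at -0.71 (limma adjusted p = 0.0499). miR-24b stood at -0.90 (limma adjusted p = 0.017). Both were called lower, against -0.20 and -0.26 without the adjustment. Frog miR-24a, with the same target as the human reporter, stood at -0.58 with the adjustment and was not called (limma adjusted p = 0.11). Animal 368 is also the 1 animal whose blastema was labelled with Cy3, and dye and animal cannot be told apart within 1 array.

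Of the 16 miR-27 reporters on the LC Sciences arrays, 7 were called lower in the blastemas, where 22.4% of all reporters were, and none higher; these were reporters of miR-27a, frog miR-27c and miR-27d. The zebrafish miR-27d reporter read 274, 183 and 209 in blastemas, against 534, 602 and 844 in stumps, a fall of 2.96-fold with no overlap (log2 difference -1.56, SE 0.27, limma adjusted p = 0.0033). The second miR-27d reporter fell by 1.38 on the log2 scale (SE 0.29, limma adjusted p = 0.0082). Frog miR-27c read 481, 292 and 291 in blastemas, against 605, 665 and 933 in stumps, 2.09-fold lower (log2 difference -1.07, SE 0.30, limma adjusted p = 0.023), and its repeat reporter fell by 0.98 (SE 0.27, limma adjusted p = 0.022). The zebrafish miR-27c reporter was dim, at 24, 55 and 59 in blastemas, against 65, 95 and 79 in stumps, with 1 blastema under the floor (difference -0.74, SE 0.30, limma adjusted p = 0.081).

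miR-27a split by animal. Its zebrafish reporter read 667, 505 and 514 in blastemas, against 812, 935 and 1124 in stumps, and was 1.70-fold lower with no overlap (log2 difference -0.77, SE 0.23, limma adjusted p = 0.032). The human reporter differed by 0.11 in animal 368, by -1.36 in animal 369 and by -1.99 in animal 378 (log2). Its blastemas overlapped the stumps through animal 368, and the mean of -1.08 missed the threshold (SE 0.38, limma adjusted p = 0.051). In all, 3 of the 6 miR-27a reporters passed the test, all 6 differences lay between -1.23 and -0.71, and those of animal 368 alone lay between -0.28 and 0.11.

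miR-27b, the mate of miR-23b, was not called on this platform. The human reporter read 907, 710 and 756 in blastemas, against 881, 951 and 1053 in stumps (difference -0.29, 95% confidence interval -0.78 to 0.21, limma adjusted p = 0.29). The 5 miR-27b reporters differed by -0.54 to -0.08. Groups did not overlap for 25 of the 37 member reporters, against 61.8% of all 500.

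**Figure D3:**
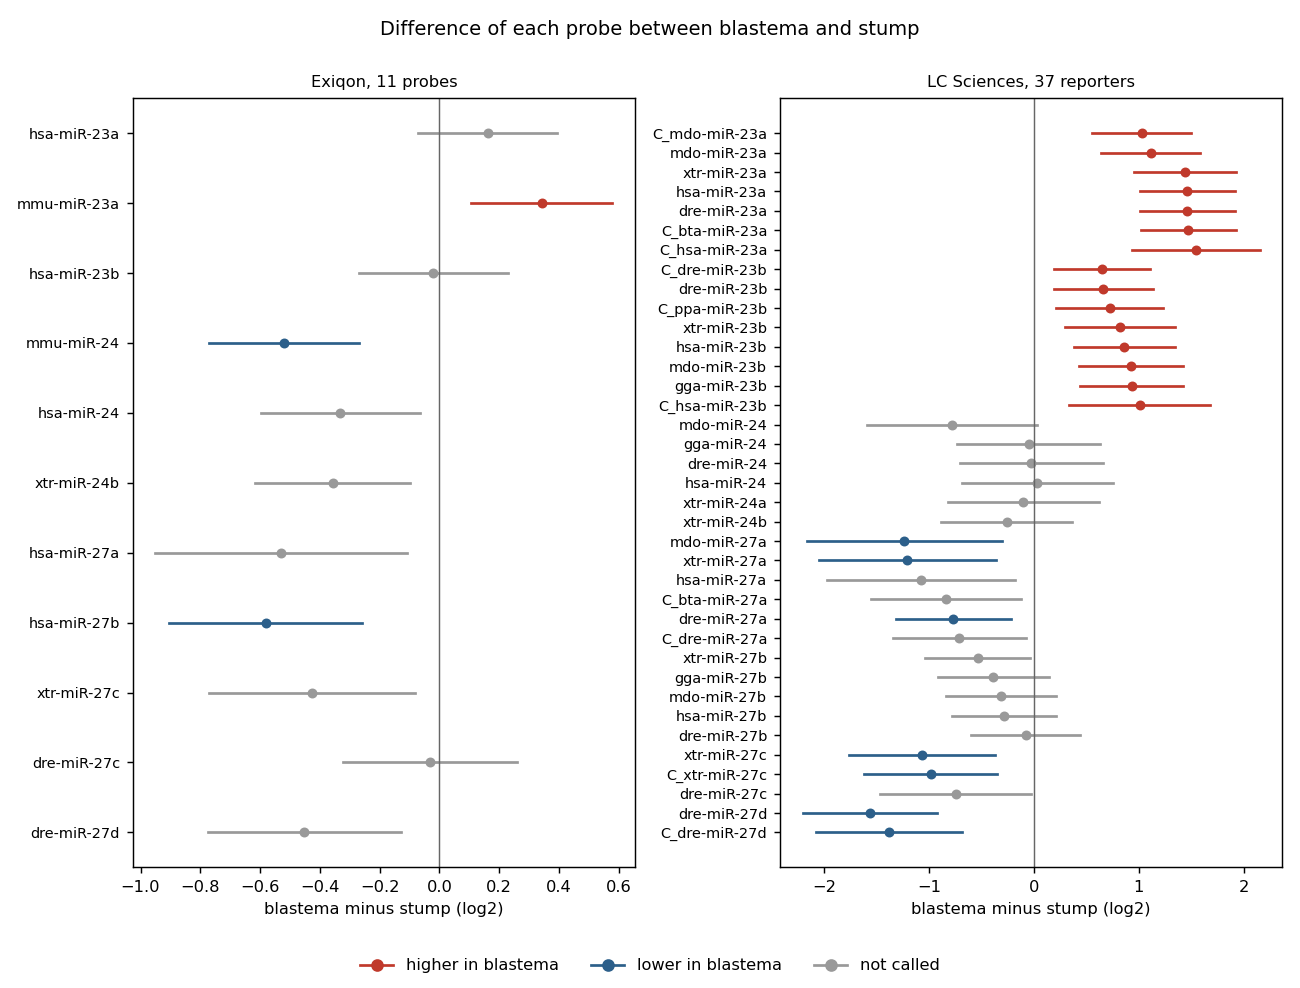
Difference between blastema and stump (log2) of each Exiqon probe (left) and LC Sciences reporter (right) of the group, with its 95% confidence interval from limma. The horizontal scales differ. Red marks probes called higher in blastema, blue those called lower and grey those not called at a limma adjusted p under 0.05; all 15 miR-23 reporters of LC Sciences are red (none is when set relative to the spike-in controls) and all 7 blue ones are miR-27a, miR-27c or miR-27d.

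On the Exiqon arrays miR-27b was the clearest of its family. Its probe read -0.30, -0.39 and -0.75 (log2 ratio) in blastemas, against -0.04, 0.10 and 0.24 in stumps. The groups were apart and the probe fell by 0.58 (SE 0.14, limma adjusted p = 0.017). The miR-27a probe gave -0.18, -0.47 and -0.91 in blastemas, against -0.23, 0.09 and 0.16 in stumps, with animal 368 level and animal 378 lowest (difference -0.53, SE 0.19, limma adjusted p = 0.082). The miR-27d probe differed by -0.45 (SE 0.14, limma adjusted p = 0.055) and the frog miR-27c probe by -0.43 (SE 0.15, limma adjusted p = 0.087), both without overlap. The zebrafish miR-27c probe, the dimmest of the group with Hy3 signals of 164 to 169 in blastemas and 174 to 181 in stumps, differed by -0.03 (limma adjusted p = 0.91). In sum, 1 of 11 member probes was called higher and 2 lower. Groups did not overlap for 8 of the 11, against 35.3% of all probes. All 11 were above the negative controls, as were 972 of the 2011 probes in at least 1 group. Of these 972, 23.5% were called higher and 23.7% lower when tested alone. In that test 1 of the 11 member probes was called higher and 7 lower. The share of the 972 without overlap was not taken. With all probes of a name averaged, 10% of 979 names were called higher and 16.2% lower. Among them, miR-24 and miR-24a (-0.43, limma adjusted p = 0.016), miR-24b (-0.34, limma adjusted p = 0.047), miR-27b (-0.58, limma adjusted p = 0.013) and miR-27d (-0.45, limma adjusted p = 0.042) were lower, while miR-23a stood at 0.25 (limma adjusted p = 0.088). The names miR-24 and miR-24a rest on the same probes here, and miR-24b shares the human-first miR-24 probe with them, so these calls are not separate. With the animal as a block, miR-24b (limma adjusted p = 0.083) and miR-27d (limma adjusted p = 0.076) lost the call.

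Leaving out single animals changed these calls. On the LC Sciences arrays, the 15 member reporters higher and 7 lower became 12 and 10 without animal 368 (20% and 19% of all reporters), 6 and none without animal 369 (12.4% and 8.6%), and 7 and 1 without animal 378 (22% and 16.4%). The human miR-23a reporter kept its call without each animal (limma adjusted p = 0.0059, 0.034 and 0.016 without animals 368, 369 and 378). As the mean of its reporters, miR-23b lost its call without animal 369 (limma adjusted p = 0.083). It kept the call without animals 368 and 378 (limma adjusted p = 0.033 and 0.048). The zebrafish miR-27d reporter was not called without animal 369 (limma adjusted p = 0.058). For Exiqon, 1 higher and 2 lower became none and 5 without animal 368 (8.8% and 9.96% of all probes). No member, as a probe or as the mean of a name, was called without animal 369 or without animal 378. Of all probes, 5.5% were higher and 7.6% lower without animal 369, and 4.1% and 5.1% without animal 378. With all animals these shares were 9.2% and 10.9%. With the animal as a block, 13 LC Sciences member reporters were higher and 4 lower, where 24.6% of all reporters were higher and 21.6% lower.

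Grouped as in the human clusters, miR-23 gained on its mates in all 3 animals on both platforms as normalized. These gaps passed no threshold after adjustment. The arrangement in the axolotl was not read, and miR-24 cannot be assigned to 1 cluster. miR-27c and miR-27d were not paired. In the LC Sciences spots of animal 368 before normalization, miR-24 (median log2 ratio -0.63) stood above miR-23b (-0.94). As the mean of all probes of a name, miR-23a gained on miR-27a, its mate in the a cluster, by 1.34, 2.58 and 3.07 (log2) in animals 368, 369 and 378 on the LC Sciences arrays, a mean of 2.33 ± 0.89 (SD, n = 3 animals). On the Exiqon arrays the gain was 0.26, 0.86 and 1.22, a mean of 0.78 ± 0.49. In the b cluster miR-23b gained on miR-27b by 1.14 ± 0.45 on the LC Sciences arrays and 0.56 ± 0.22 on the Exiqon arrays, in 3 of 3 animals each. Against miR-24, miR-23a gained 1.57 ± 0.65 and 0.68 ± 0.09, and miR-23b 1.03 ± 0.71 and 0.41 ± 0.04, on the LC Sciences and Exiqon arrays in turn. The LC Sciences mean of miR-24 takes in the dim opossum reporter of the short target (-0.78). The human, zebrafish and chicken reporters in it differed by -0.05 to 0.03, and gains without the opossum reporter were not taken. In each of these 8 comparisons the 3 blastemas and 3 stumps did not overlap, and the two-sided exact permutation p was 0.1, the smallest that 3 against 3 allow (adjusted over the 10 pairs of a platform, p = 0.11 for LC Sciences and 0.14 for Exiqon, exact permutation test). This test did not use the pairing by animal, and sign changes over 3 animals reach no p below 0.25. The share without overlap among pairs of other names was not taken. Among single probes it was 61.8% on the LC Sciences and 35.3% on the Exiqon arrays.

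**Figure D4:**
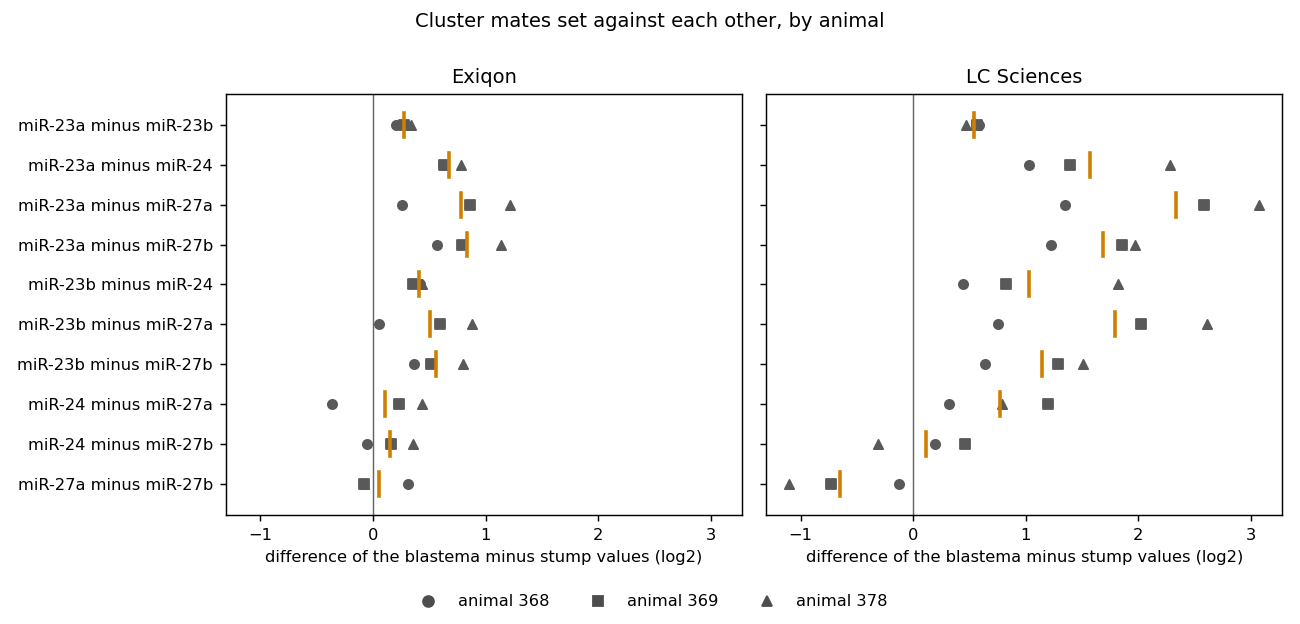
Differences between 2 members of their blastema minus stump values (log2), for 10 pairs of 5 members on each platform. Each symbol is 1 animal and the orange bar is the mean of 3 animals. Every pair that sets miR-23a or miR-23b against miR-24 or miR-27 lies above 0 in all animals on both platforms, in normalized values.

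Mates on the other side of the cluster were closer. miR-24 and miR-27b differed from each other by 0.12 ± 0.39 on the LC Sciences arrays and 0.16 ± 0.20 on the Exiqon arrays, with 2 animals one way and 1 the other on each (exact permutation p = 0.5 and 0.4). miR-24 gained on miR-27a in 3 of 3 animals on the LC Sciences arrays (0.77 ± 0.44, exact permutation p = 0.1) and in 2 of 3 on the Exiqon arrays (0.10 ± 0.42, exact permutation p = 0.7). The forms of 1 family also differed: miR-23a gained on miR-23b by 0.54 ± 0.06 on the LC Sciences arrays and 0.27 ± 0.07 on the Exiqon arrays, in 3 of 3 animals on both (exact permutation p = 0.1 each). miR-27a lost against miR-27b on the LC Sciences arrays (-0.65 ± 0.49, exact permutation p = 0.1) and did not on the Exiqon arrays (0.05 ± 0.23, exact permutation p = 0.7). In every animal on both platforms, as normalized, miR-23a had the highest difference of the 5 members and miR-23b the next.

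A scaling that adds 1 constant to each sample leaves these gains as they are. So does a filter that keeps all probes of the members, or a floor below their signals. For LC Sciences, median scaling, the spike-in scaling, other floors and the lack of a filter thus could not change the gains of miR-23 on miR-27. Over all 10 alternatives, these included, the gain of miR-23a on miR-27a ran between 1.96 and 2.83. That of miR-23b on miR-27b ran between 0.96 and 1.40. Over 14 alternatives for Exiqon they ran between 0.42 and 1.04 and between 0.37 and 0.66, and the changes of filter among these could not move them. The directions of single members were less firm. Relative to 4 spike-in control reporters, which read 2.91 (log2) higher in the blastemas than in the stumps, the median of all 500 LC Sciences reporters shifted to -2.90, 2 were called higher and 426 lower in place of 129 and 112, and all 37 member reporters were called lower, miR-23a included (-1.55 as a mean). This scaling moves all reporters of a sample by 1 constant, so distances between members stay as they were. It rests on the normalized controls, which for animal 368 read 2.48, against -0.19 in the spots before normalization. On the Exiqon arrays median centring gave 55 probes higher and 264 lower in place of 185 and 220, loess on the spike-in controls 26 and 272, and either left 10 of 11 member probes lower and none higher.

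**Figure D5:**
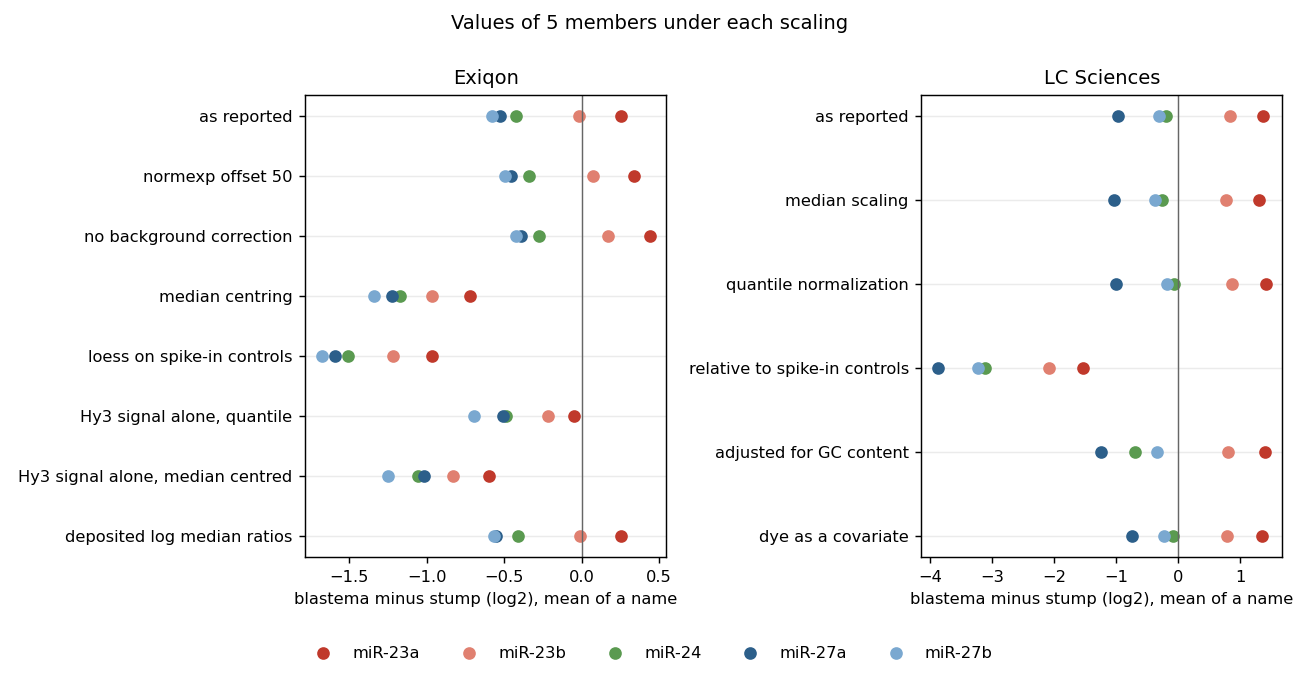
Blastema minus stump (log2) of 5 members, as the mean of all probes of a name, as reported and under each other scaling, for Exiqon (left) and LC Sciences (right), on different horizontal scales. The points shift along the axis between scalings, by unlike amounts in some rows, and miR-23a stays to the right of miR-23b, miR-24 and miR-27 in every row.

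The platforms did not give the same size of change. For miR-23a the LC Sciences difference exceeded that of Exiqon by 0.97, 1.04 and 1.32 (log2) in animals 368, 369 and 378, a mean of 1.11 ± 0.18 (SD, n = 3). For miR-23b the excess was 0.84 ± 0.32. For miR-27d (-1.02 ± 0.29), miR-27c (-0.70 ± 0.07) and miR-27a (-0.44 ± 0.29) it lay below 0 in 3 of 3 animals, and for miR-27b (0.26 ± 0.26) and miR-24 (0.22 ± 0.38) it took both signs. The exact sign-change test gave p = 0.25 for the 5 members with 1 sign, the smallest that 3 animals allow (0.45 adjusted over 9 members, exact test). GC content differed between members, from 40.9% in the miR-27d targets to 57.1% in miR-24b, and over all LC Sciences reporters the difference rose by 0.62 (SE 0.07) per 10 points of GC. With each animal's differences adjusted for GC content, all 15 miR-23 reporters stayed called higher and 12 member reporters were called lower, where 29% of the 500 reporters were higher and 22.2% lower.

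Spot values before normalization were read for the LC Sciences array of animal 368 alone. After subtraction of the median miRNA spot (324.7 for blastema, 45.4 for stump), all members lay below 0. The median log2 ratio of blastema over stump was -0.47 for miR-23a, -0.94 for miR-23b, -0.63 for miR-24, -1.28 for miR-27a, -1.35 for miR-27b and -1.93 for miR-27d. miR-23a was again the highest, and miR-24 stood above miR-23b. The 4 spike-in controls read -0.19 in these spots, against 2.48 for animal 368 in the normalized signals. Relative to them the 7 miR-23a reporters stood at -0.37 to 0.13 and the 8 miR-23b reporters at -0.91 to -0.61.

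The passenger strands of the same hairpins were near the floor on the LC Sciences arrays and in part above background on the Exiqon arrays. On the LC Sciences arrays the 7 reporters (miR-23a*, miR-23b*, miR-24-1*, miR-24-2*, miR-27a*, miR-27b* and miR-27c*) read 1 to 40, and none was tested. Of the 3 Exiqon probes, miR-27a* lay below the brightest negative control on all arrays and the other 2 above it on all 6. The probe shared by miR-24-1* and miR-24-2* read Hy3 signals of 246, 261 and 296 in blastemas, against 397, 301 and 377 in stumps (log2 ratio difference -0.22, SE 0.13, limma adjusted p = 0.33). Zebrafish miR-27c* read 389, 307 and 287 in blastemas, against 656, 319 and 259 in stumps (difference -0.45, SE 0.16, limma adjusted p = 0.086).

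By correlation over the 6 samples, taken as a description, the names outside the group most like miR-23a were miR-705, miR-193a and miR-205 on the LC Sciences arrays (Pearson r of 0.99 each) and miR-664, miR-31 and miR-31* on the Exiqon arrays (0.96 to 0.98). Those most like miR-24 were miR-30e (0.90), miR-103 (0.83) and miR-199a-3p (0.78) on the LC Sciences arrays and miR-221, miR-30d and miR-193a-3p on the Exiqon arrays (0.99 to 1.00). Nearest to miR-27b were miR-30d (0.94), miR-27e (0.93) and miR-130b (0.79) on the LC Sciences arrays, and miR-125a-5p, miR-34 and miR-34a on the Exiqon arrays (0.98 to 0.99). By its name miR-27e is a miR-27 form outside the list of members, and its blastema minus stump difference was -1.70 (log2). The values of miR-34 and miR-34a were identical, so they are not separate neighbours. The 6 points share animals and arrays, and the 2 tissues differ, so such correlations are high for many names. No name was in both platforms' sets for 1 member.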

How the data were processed

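MicroRNA of 3 blastemas and 3 stumps was read on 2 platforms. For Exiqon, the deposited scanner files hold spot intensity (mean signal and local background) in 2 channels, as the authors received them and without correction. The deposited log2 ratios (log median ratios, normexp with offset 10 and loess per the authors' notes) were an alternative, and 10 of the 11 member probes had all 6 values there. For LC Sciences, the authors deposited linear signal intensity averaged over spots and normalized by the company. The methods name Lowess and the array reports of animals 369 and 378 a global normalization, and which was used is not settled here. In the stump of animal 368 the step from background-subtracted spots to signals was not 1 factor for all reporters. The human miR-23b reporter went from 6027 to 2784 there and the human miR-27a reporter from 299 to 205. In its blastema they went from 2872 to 4306 and from 144 to 222. Columns of the authors' own fold changes and p-values were not used.

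Exiqon log2 ratios were made in limma 3.58.1 (R 4.3.3) with normexp (offset 10) and loess within each array. Flagged spots were dropped and the 4 spots of a probe averaged. Probes were kept where at least 50% of spots were over background by 2 SD on all 3 arrays of a group (2011 of 2021), and LC Sciences reporters where the signal reached 32 in all 3 samples of a group, without 12 control reporters. Blastema was set against stump with lmFit and eBayes over all kept probes (Benjamini-Hochberg, threshold 0.05). Pairs of members used an exact permutation test over samples and platforms an exact sign-change test, both two-sided. Samples of 1 number come from 1 animal. Deviations of same-numbered samples correlated at -0.04 to -0.01 (Exiqon) and -0.05 to 0.17 (LC Sciences), and the animal as a block was an alternative, beside other background corrections, normalizations, channels, filters, floors, the dye, GC content, the methods' t-test and leaving out each animal. Precision rests on 3 samples a group. The members, lists and rules were chosen with earlier results of these data known. The named microRNAs are all members, their passenger strands and, for miR-23a, miR-24 and miR-27b, the 3 most correlated names.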

Additional observations from a re-analysis of the deposited data

How the results depend on the processing

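For Exiqon, member probes called higher and lower (1 and 2 as reported) were 2 and 4 with a normexp offset of 50. Of all probes, 10.4% were then higher and 11.6% lower. Without background correction 2 member probes were higher, where 10.2% of all probes were. Median centring and loess on the spike-in controls each gave 0 and 10. Over all 2011 probes, median centring gave 55 higher and 264 lower, and the spike-in loess 26 and 272. Median-centred Hy3 signals alone, chosen after seeing the data, gave 0 and 9 (all probes: 35 higher and 162 lower). No member probe was higher with the median of spots (8.8% of all probes were) or with the animal as a block (replicate pairing, 7.7%). The count of lower member probes was 5 with quantile Hy3 signals (10.2% of all probes were lower) and 1 with the methods' t-test (8.0%). It was 7 with probes above the negative controls alone (23.7% of the 972 probes then tested were lower) and 7 with the deposited ratios (38.5% of 403). miR-23a turned to -0.72 (median centring), -0.96 (spike-in loess), -0.053 (Hy3 quantile) and -0.60 (Hy3 median centred). As a name, miR-23b turned to 0.075 (offset 50) and 0.17 (no correction, limma adjusted p = 0.047). It was called lower, at -0.97 with median centring (limma adjusted p = 0.0016) and -1.22 with spike-in loess (limma adjusted p = 0.0061). With median-centred Hy3 signals it was called lower too (-0.83, limma adjusted p = 0.022). miR-24 minus miR-27a turned to -0.036 with median-centred Hy3. Without single animals, member probes higher were 0 throughout, member probes lower 0 to 5, all probes 82 to 177 higher and 103 to 200 lower, miR-23b -0.083 to 0.068 and miR-24 minus miR-27a -0.064 to 0.34.

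For LC Sciences (15 and 7 member reporters), no filter left 10 member reporters higher and 0 lower (of all 1974 reporters, 43 were higher and 36 lower). The mean of miR-23b reporters then lost its call (limma adjusted p = 0.080), and that of miR-23a kept it (limma adjusted p = 0.011). Relative to the spike-in controls 0 member reporters were higher and 37 lower (all reporters: 2 and 426), with miR-23a at -1.55 and miR-23b at -2.08. Member reporters lower were 12 with GC adjustment, 4 with the animal as a block and 4 with the methods' t-test. Of all 500 reporters, 22.2%, 21.6% and 17.4% were lower in turn. miR-24 minus miR-27b turned to -0.36 with GC adjustment, and miR-24a to 0.010 (quantile) and 0.091 (dye). Without single animals, member reporters higher were 6 to 12 and lower 0 to 10, all reporters 62 to 110 and 43 to 95. miR-24 then ran from -0.43 to 0.10, miR-24a from -0.48 to 0.23, miR-24b from -0.58 to 0.026 and miR-24 minus miR-27b from -0.058 to 0.33. Where no reason stands beside a value, the cause was not tested. Gains of miR-23a on miR-24 and miR-27a, and of miR-23b on miR-24 and miR-27b, kept their direction under every alternative able to change them. The LC Sciences spots of animal 368 before normalization are not among these alternatives. There miR-24 (median log2 ratio -0.63) stood above miR-23b (-0.94).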
